A study of Mus musculus with 4 samples.

Results

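The signals of 38 genes of the bone morphogenetic protein (BMP) and transforming growth factor beta (TGF-beta) pathways were compared between epidermal basal cells with and without Ezh2. The genes were taken as a list by role, from secreted ligands to receptors, antagonists, Smads and Id target genes, and every probe set annotated to exactly 1 of these symbols was read, 87 in all. Of the 38 genes, 35 passed the intensity filter (a mean signal of at least 73.2), out of 12703 genes that passed and 18193 with a probe set of a single symbol. The cells were basal keratinocytes sorted by flow cytometry from skin of mouse embryos at day 16, either wild type (WT) or carrying a conditional knockout of Ezh2 (Ezh2cKO), all of mixed C57 and CD1 background. RNA of each sample went onto 1 Affymetrix expression array, giving 4 arrays, and within each genotype the labels number them replicate 1 and replicate 2. The labels do not name the Cre driver or the deleted exons, and they do not say whether the samples came from single or pooled embryos or from separate animals. The p-values below thus reflect how far these samples scatter, and that scatter may be technical.

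BMPs and TGF-betas are secreted dimers that bring type I and type II receptor kinases together on the cell surface. The receptors phosphorylate Smad proteins, Smad1 and Smad5 after BMP and Smad2 and Smad3 after TGF-beta or activin, and these enter the nucleus with the shared partner Smad4. In skin, BMP signalling restrains hair placode formation and favours differentiation, its antagonists such as noggin allow follicles to form, and TGF-beta holds back keratinocyte proliferation. Ezh2 is the methyltransferase of Polycomb repressive complex 2, which silences many developmental genes through histone H3 methylation, and the study asked which genes change when that silencing is lost from epidermal progenitors.

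Ezh2 itself read 3336 and 3603 in WT against 661 and 1308 in Ezh2cKO, 0.198 times WT within number 1 and 0.363 times within number 2. Ratios here and below are of the printed signals, while log2 differences are of signal + 16. Its log2 difference was -1.88 (SE 0.34, 95% interval -2.72 to -1.03), and limma without a block did not call it after adjustment. The deposited values are MAS5 signal intensities on a linear scale, and the median signal was 91.6 and 87.4 on the arrays numbered 1 and 137 and 148 on those numbered 2. All 6 basal markers on the list (Krt5, Krt14, Itga6, Itgb4, Col17a1 and Trp63) passed the filter, with summed signals between 58382 and 66809 per array. All 8 dermal fibroblast markers passed as well and none was at 0. Their summed signal was 48956 and 54897 in WT and 46251 and 58119 in Ezh2cKO, so probe sets of dermal genes were bright in both genotypes. All 8 endothelial markers passed, and their sum was 4617 on Ezh2cKO replicate 1 against 9019.9 to 11198 on the other arrays. Of 8 late differentiation markers 7 passed the filter, with sums over those 7 of 2576 and 3848 in WT and 10043 and 5821 in Ezh2cKO. Among them Flg, Lce1c and Lce1d passed only through their Ezh2cKO signals, and of the other 4, 3 were higher on both Ezh2cKO arrays than on both WT arrays, as 8.52% of all genes were. Of the melanocyte markers 5 of 8 passed the filter, and of the immune markers 3 of 6. The part of these other cells and layers in the values below was not tested, and in such bulk samples fewer cells of a type and less RNA per cell cannot be told apart.

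The BMP and TGF-beta genes differed little between the genotypes. In limma, fitted over all probe sets with Benjamini-Hochberg adjustment, 0 of the 35 measured genes were called at an adjusted p under 0.05 (lowest adjusted p 0.999979), where 0.0% of all 12703 genes were called. At an unadjusted p under 0.05 there were also 0 of 35, against 0.606% of all genes. The log2 differences, Ezh2cKO minus WT of log2(signal + 16), ran from -0.21 for Bambi to 0.34 for Bmpr1b, with 18 above and 17 below 0. Their median was 0.0057, and that of all genes was -0.0035. The median size of a difference, without its sign, was 0.068 among these genes and 0.10 among all genes. Within number 1 it was 0.11 against 0.16, but within number 2 it was 0.14 against 0.12, so the list was not smaller in both. The median SE was also lower in the list, at 0.22 against 0.26.

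The absence of calls does not show equal levels, so the intervals are the more useful reading. By a criterion set after the values were seen, for 27 of the 35 genes (77.1%) the 95% interval of the difference lay within a 2-fold change in either direction, as it did for 68.4% of all genes. Each gene was read here by its brightest kept probe set. On that reading the 27 were all 7 Smads, all 4 Id genes, 9 of 10 receptors, 3 of 5 BMP ligands, the 3 TGF-betas and 1 of 3 antagonists. The 8 genes whose interval reached past 2-fold were Bmp2, Bmp5, Inhba, Inhbb, Ltbp1, Bmpr1b, Chrd and Bambi. Most of the 27 also had a dimmer kept probe set whose interval reached past 2-fold. Examples were Smad3 (-1.30 to 3.02), Tgfbr2 (-1.67 to 2.40) and Id2 (-1.41 to 0.53).

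**Figure D1:**
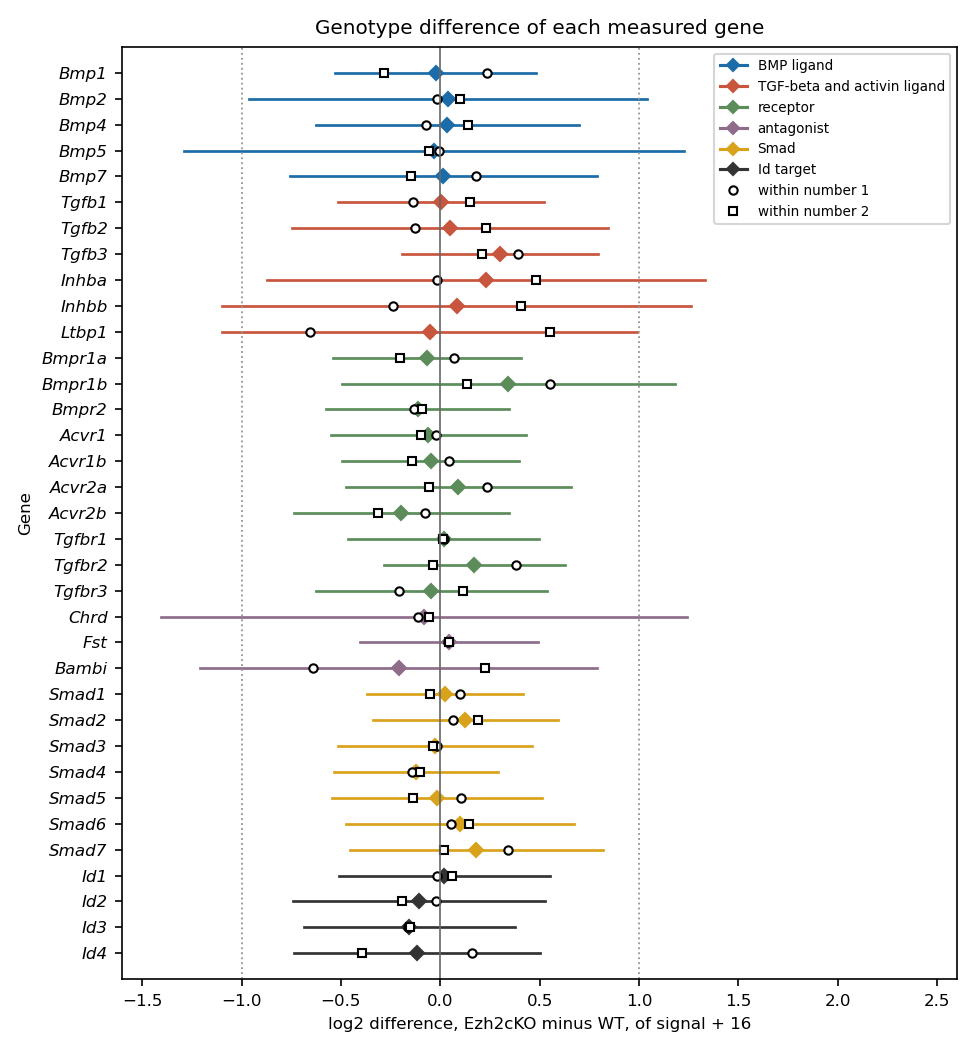
Log2 difference of signal + 16, Ezh2cKO minus WT, for the 35 measured genes (diamonds, coloured by role) with 95% intervals from limma (n = 2 arrays per genotype). Open circles and squares give the difference within array numbers 1 and 2, and dotted lines mark a 2-fold change. Each gene is shown by its brightest kept probe set. All intervals include 0, and those of 27 genes lie between the dotted lines.

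As a second reading that uses no variance, a gene counted as separated if its pair of Ezh2cKO signals was entirely above, or entirely below, its pair of WT signals. Tgfb3 and Smad2 were separated upwards (2 of 35, 5.71%) and Acvr2b downwards (1 of 35, 2.86%), against a background over all genes of 8.52% upwards and 8.39% downwards. Both shares are below that background, but they rest on 2 genes and 1 gene and are not read as a difference from it. After scaling the arrays to a common median, these 3 genes kept their direction but were no longer separated, and Inhba (higher) and Chrd (lower) were. That is 1 of 35 (2.86%) each way, where over all genes the shares were also lower under this scaling, at 3.29% upwards and 5.23% downwards. When the kept probe sets of a gene were averaged instead of taking the brightest, 6 of 35 genes (17.1%) were separated upwards, namely Acvr2a, Bmpr1a, Bmpr1b, Inhbb, Smad2 and Tgfb3, and 0 downwards, where 8.61% and 7.22% of all genes were.

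**Figure D2:**
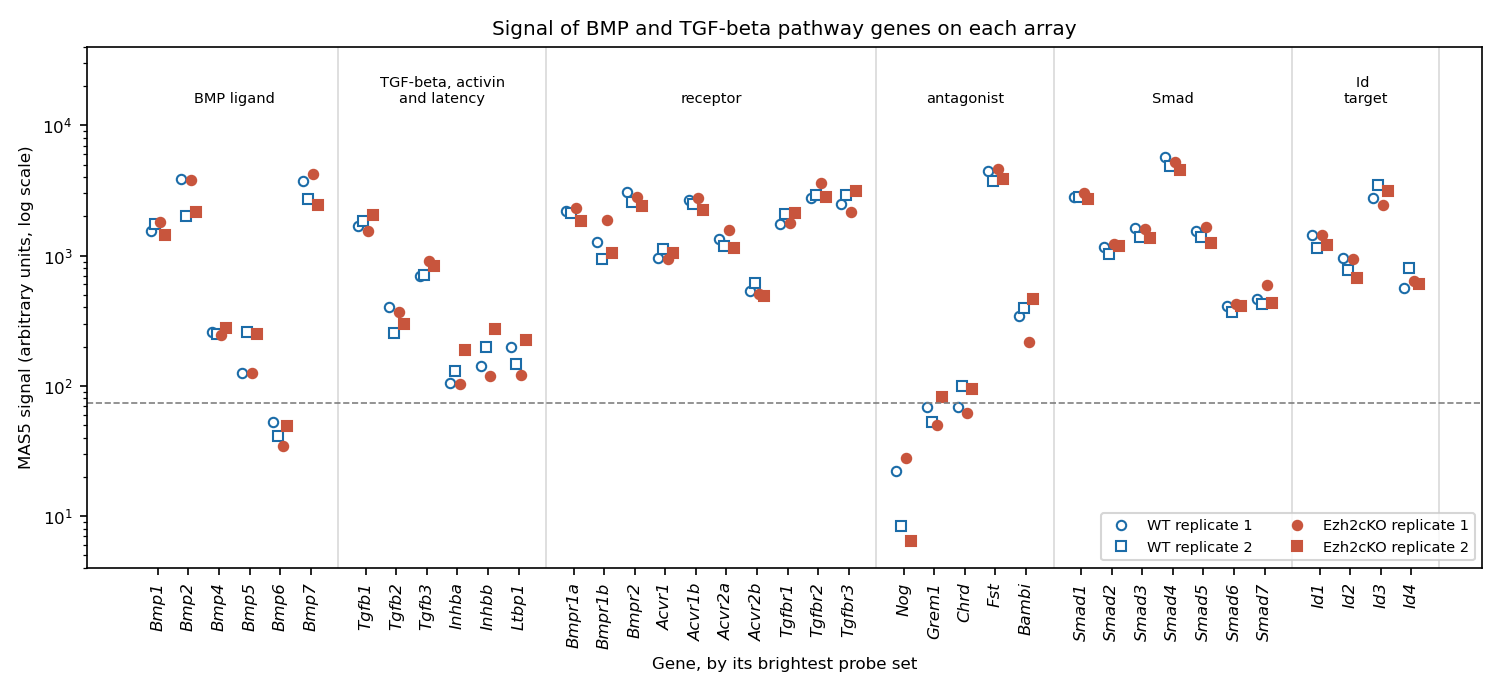
MAS5 signal (log axis) of all 38 genes on each array, by the brightest probe set, grouped by role. Open blue symbols are WT and filled red symbols Ezh2cKO, circles replicate 1 and squares replicate 2, and the dashed line is the mean signal of 73.2 that the filter required. For most genes the red and blue symbols interleave. Signals of different probe sets are not comparable in level.

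Among the BMP ligands, Bmp2, which placodes and differentiating epithelia make, had signals of 3851 and 2028 on WT replicates 1 and 2 and 3809 and 2170.4 on Ezh2cKO replicates 1 and 2. Within each number the genotypes were nearly equal, at 0.989 and 1.07 times WT, while both arrays numbered 2 lay far below both arrays numbered 1. The genotype difference was log2 0.041 (SE 0.40, 95% interval -0.96 to 1.04), a wide interval. Bmp7, an epithelial ligand, had 3720.4 and 2723 in WT and 4213 and 2455 in Ezh2cKO, again lower on the arrays numbered 2, with log2 0.015 (SE 0.31, 95% interval -0.76 to 0.79). Its 3 probe sets gave log2 differences from 0.015 to 0.32. Bmp5 had the opposite order of numbers, with 126 and 260.4 in WT and 125 and 250.1 in Ezh2cKO, and ratios between the genotypes of 0.995 and 0.961. Bmp4, a ligand known mainly from the mesenchyme of skin, was even across the 4 arrays, at 257 and 249 in WT and 244 and 277 in Ezh2cKO. Bmp1, which despite its name is a metalloprotease that processes procollagen and the antagonist chordin, had 1542 and 1745 in WT against 1819 and 1433 in Ezh2cKO, with differences of opposite sign within the numbers. Bmp6 was below the filter at 41.4 to 52.6 in WT and 34.3 to 48.7 in Ezh2cKO, and was not tested.

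Of the 3 TGF-betas, Tgfb3 was the one with separated arrays. Its signals were 694 and 712 in WT and 916 and 826 in Ezh2cKO, means of 703 ± 12.6 and 871 ± 63.7 (SD, n = 2). The lowest Ezh2cKO array lay above the highest WT array, and the ratio was 1.32 within number 1 and 1.16 within number 2. The log2 difference was 0.30 (SE 0.20, 95% interval -0.19 to 0.79), an unadjusted limma p of 0.18 and an adjusted one of 0.999979, so it did not pass. Tgfb1, the most widely made isoform, had 1698 and 1849 in WT and 1544 and 2049 in Ezh2cKO, with both WT values inside the Ezh2cKO range. Tgfb2 had 404 and 254 in WT against 368 and 301 in Ezh2cKO, and its 4 probe sets ranged from log2 -0.17 to 0.092.

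The activin subunits were dim. Inhba, the subunit of activin A, had 105 and 129 in WT and 103 and 187 in Ezh2cKO, where Ezh2cKO replicate 2 alone stood above the other arrays. Its log2 difference was 0.23 (SE 0.44, 95% interval -0.87 to 1.33). Inhbb, the subunit of activin B, had 143 and 200.1 in WT against 118 and 271 in Ezh2cKO, with the arrays numbered 2 above those numbered 1 in both genotypes. Its other kept probe set had the opposite order, with 161 and 111 in WT and 206 and 154 in Ezh2cKO, and was higher in Ezh2cKO within both numbers (log2 0.37). Ltbp1, which tethers latent TGF-beta to the matrix, had 199 and 148 in WT and 120.3 and 224 in Ezh2cKO. Its difference was log2 -0.66 within number 1 and 0.55 within number 2, so the genotypes differed in opposite directions.

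The 10 receptors had log2 differences between -0.20 and 0.34. Tgfbr1, the type I receptor of TGF-beta, had 1755 and 2092 in WT and 1777 and 2114 in Ezh2cKO, a ratio of 1.01 within both numbers and log2 0.016 (SE 0.19, 95% interval -0.47 to 0.50). Tgfbr2, the type II receptor, had 2752 and 2896 in WT against 3586 and 2823 in Ezh2cKO, with Ezh2cKO replicate 1 above the other 3 arrays. Tgfbr3, the co-receptor betaglycan, had 2506 and 2913 in WT against 2168 and 3157 in Ezh2cKO, with both WT values between the Ezh2cKO values. The interval of the difference was -0.28 to 0.63 for Tgfbr2 and -0.63 to 0.53 for Tgfbr3.

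Bmpr1a, the main type I BMP receptor of the epidermis, had 2217 and 2120.1 in WT and 2325 and 1838 in Ezh2cKO, with log2 -0.068 (SE 0.19, 95% interval -0.54 to 0.40). Its relative Bmpr1b had the largest difference of the 35 genes, with 1272 and 944 in WT and 1869 and 1039 in Ezh2cKO. Ezh2cKO replicate 1 alone stood above the rest, and Ezh2cKO replicate 2 lay between the WT arrays. Its 3 kept probe sets gave log2 differences from 0.046 to 0.34. By the brightest, the ratio to WT was 1.47 within number 1 and 1.10 within number 2. The log2 difference was 0.34 (SE 0.33, 95% interval -0.49 to 1.18), which turned to -0.075 when Ezh2cKO replicate 1 was left out and became 0.76 when replicate 2 of that genotype was. Bmpr2, the type II BMP receptor, had 3099 and 2576 in WT against 2824 and 2414 in Ezh2cKO, with overlapping groups and log2 -0.11 (SE 0.18, 95% interval -0.57 to 0.35).

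Of the activin receptors, Acvr2b, a type II receptor, was the gene separated downwards. It had 535 and 615 in WT and 506 and 491 in Ezh2cKO, 575 ± 56.2 against 499 ± 10.7 (SD, n = 2). The higher Ezh2cKO value was under the lower WT value, and the ratio was 0.946 within number 1 and 0.799 within number 2, with log2 -0.20 (SE 0.22, 95% interval -0.74 to 0.34) and an unadjusted limma p of 0.4. Its second kept probe set had a log2 difference of 0.032. Acvr2a, its paralog, had 1334 and 1189.8 in WT against 1573 and 1144 in Ezh2cKO. The second probe set of Acvr2a was separated upwards, with 319 and 269.9 in WT and 393 and 400.4 in Ezh2cKO (log2 0.42, unadjusted limma p 0.144), while the brightest gave 0.09. The type I receptors Acvr1 and Acvr1b overlapped between the genotypes, with log2 -0.06 and -0.049 and all 8 signals between 949 and 2746.

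The promoter of Acvr2b is shown as that of the gene with the lower arrays. The stretch is the 250 bases before its start site in RefSeq (GRCm38.p6), a build used for these sequences only. Capitals mark 2 short motifs that Smad proteins can bind, the CAGA-box core CAGAC and the GC-rich GGCGC, each on either strand, where matches may overlap each other.
Acvr2b (chr9:119401928-119402177, plus strand): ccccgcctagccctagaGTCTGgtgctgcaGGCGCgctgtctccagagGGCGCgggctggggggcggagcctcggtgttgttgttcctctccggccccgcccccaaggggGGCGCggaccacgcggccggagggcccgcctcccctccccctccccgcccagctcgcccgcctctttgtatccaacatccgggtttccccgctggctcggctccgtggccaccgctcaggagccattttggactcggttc
The window held 1 match of CAGAC and 3 of GGCGC. Such short motifs are common, since 42.2% of the 32851 RefSeq windows (27025 genes) held CAGAC and 32% held GGCGC.

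Among the antagonists, Fst, encoding the activin-binding protein follistatin, was bright and even. It had 4480.1 and 3729 in WT and 4605 and 3847 in Ezh2cKO, a ratio of 1.03 within both numbers and log2 0.042 (SE 0.18, 95% interval -0.40 to 0.49). Bambi, a kinase-less pseudoreceptor that dampens signalling, had 346 and 396 in WT and 216 and 465 in Ezh2cKO, so 1 Ezh2cKO array was the lowest and the other the highest. Its log2 difference was -0.21 (SE 0.40, 95% interval -1.21 to 0.79), and 0.32 without Ezh2cKO replicate 1. Chrd, encoding the BMP-binding protein chordin, was near the filter at 68.1 and 99.0 in WT against 61.9 and 94.7 in Ezh2cKO. Grem1, the BMP antagonist gremlin, and Nog, encoding noggin, lay below it. Grem1 had 69.2 and 52.6 in WT and 50.2 and 82.0 in Ezh2cKO, and Nog had 22.0 and 8.44 in WT against 27.8 and 6.44 in Ezh2cKO. No background level was used, so whether these last genes were expressed in the sorted cells is not known from these values.

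The 7 Smads had log2 differences between -0.12 and 0.18. Smad1, which carries the BMP signal, had 2826 and 2819 in WT and 3031 and 2717 in Ezh2cKO, with log2 0.024 (SE 0.16, 95% interval -0.37 to 0.41). Smad5, its partner in the same branch, had 1535 and 1382 in WT against 1649.7 and 1256 in Ezh2cKO. Smad2, of the TGF-beta and activin branch, had 1167 and 1028 in WT and 1219 and 1175 in Ezh2cKO, with separated arrays but a small difference of log2 0.13 (SE 0.19, 95% interval -0.34 to 0.59). The second probe set of Smad2 was separated in the same direction, at 314 and 276 in WT and 406 and 351 in Ezh2cKO (log2 0.34, unadjusted limma p 0.223), so both probe sets of this gene were higher on both Ezh2cKO arrays. Smad3 had 1629.7 and 1396 in WT against 1612 and 1362 in Ezh2cKO, with ratios of 0.989 and 0.975 within the numbers. Its 3 probe sets disagreed, from log2 -0.15 to 0.86, the highest from a dim probe set with 16.8 on WT replicate 1.

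Smad4, the shared partner, was lower in Ezh2cKO within both numbers by a small amount, at 5758 and 4858 in WT and 5209 and 4526 in Ezh2cKO, with overlapping groups and log2 -0.12 (SE 0.16, 95% interval -0.54 to 0.29). Its 3 probe sets ranged from -0.18 to -0.053, all below 0 and none with a call, and 1 of the dimmer probe sets was separated downwards. The inhibitory Smads, which block the receptors and are induced by the pathway itself, had overlapping groups. Smad6 had 408 and 367 in WT and 425 and 407 in Ezh2cKO, where the lower Ezh2cKO value was just under the higher WT value. Smad7 had 467 and 428 in WT against 596 and 434 in Ezh2cKO, with Ezh2cKO replicate 1 alone above the rest, log2 0.18 (SE 0.25, 95% interval -0.46 to 0.82), and a second, dimmer probe set at -0.31.

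The Id genes encode helix-loop-helix proteins without a DNA-binding region and are direct transcriptional targets of BMP Smads, so they are often read as a measure of BMP signalling. Id1 had 1445 and 1151 in WT and 1429.5 and 1198 in Ezh2cKO, ratios of 0.99 and 1.04 within the numbers and log2 0.021 (SE 0.21, 95% interval -0.51 to 0.55). Id3 had 2754 and 3508 in WT against 2461 and 3158 in Ezh2cKO, lower in Ezh2cKO by nearly the same ratio within both numbers (0.894 and 0.9), with log2 -0.16 (SE 0.21, 95% interval -0.69 to 0.37) and overlapping groups. Of the 4 genes, Id1 and Id2 were lower on the arrays numbered 2 in both genotypes and Id3 was higher. Id2 had 957 and 775 in WT and 943 and 676 in Ezh2cKO, and its second kept probe set had 472 and 545 in WT and 538 and 254 in Ezh2cKO, so 1 array was low. Id4 had 568 and 796 in WT against 636 and 601 in Ezh2cKO, and its 3 probe sets ranged from log2 -0.12 to 0.27. By the brightest probe set of each gene, the intervals of all 4 lay within a 2-fold change, and their median difference was log2 -0.11. The second kept probe set of Id2 had an interval of -1.41 to 0.53. The other probe sets of Id4 had upper bounds of 1.14 and 1.19. With averaged probe sets, Id2 was at log2 -0.27 and Id4 at 0.13.

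The promoters of Id2, Id3 and Id4 are shown because these genes are the transcriptional output of the pathway. Each is the 250 bases before the RefSeq start (GRCm38.p6), marked as for Acvr2b.
Id2 (chr12:25096093-25096342, minus strand): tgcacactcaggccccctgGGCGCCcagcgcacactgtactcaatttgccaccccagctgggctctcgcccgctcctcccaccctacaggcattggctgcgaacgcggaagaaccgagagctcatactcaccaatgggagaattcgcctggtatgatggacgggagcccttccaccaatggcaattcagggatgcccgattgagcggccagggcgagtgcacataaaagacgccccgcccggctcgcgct
Id3 (chr4:136143572-136143821, plus strand): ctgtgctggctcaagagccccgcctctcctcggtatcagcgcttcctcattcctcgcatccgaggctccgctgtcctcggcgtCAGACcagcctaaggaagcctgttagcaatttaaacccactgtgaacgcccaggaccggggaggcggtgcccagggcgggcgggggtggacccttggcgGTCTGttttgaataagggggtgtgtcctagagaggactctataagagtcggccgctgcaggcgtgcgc
Id4 (chr13:48260866-48261115, plus strand): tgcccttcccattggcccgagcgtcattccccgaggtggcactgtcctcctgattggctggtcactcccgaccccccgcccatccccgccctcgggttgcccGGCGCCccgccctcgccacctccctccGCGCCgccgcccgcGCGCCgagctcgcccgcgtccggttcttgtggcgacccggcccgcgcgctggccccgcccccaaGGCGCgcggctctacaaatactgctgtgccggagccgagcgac
All 3 windows were rich in CpG, with an observed over expected CpG ratio of 0.744, 0.732 and 1.05 and a GC content of 62.8%, 62.8% and 75.6%. Id3 held 2 matches of CAGAC, Id2 held 2 of GGCGC and Id4 held 5. The 2 matches of Id2 overlap in the stretch GGCGCC, read on either strand, and Id4 also held such a stretch. Promoters of the list as a whole were often rich in CpG. RefSeq windows were at hand for 26 of the 38 genes (32 windows). Of these windows 21 (65.6%) had a GC content of at least 55% and a CpG ratio of at least 0.6, as 27.6% of all windows did. All windows here are those of 27025 genes, more than the 12703 that passed the filter. No share over the tested genes was taken, so the 2 percentages do not compare the list with genes measured here. CpG-rich promoters are the class that Polycomb complexes are known to occupy, though no binding was measured here. GGCGC lay in 62.5% and CAGAC in 43.8% of the 32 windows. A match is a description of the sequence and not a binding site.

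The differences between the genotypes were then read within each array number, with a 1.5-fold mark that was set after the values were seen. On signal + 16, 0 of the 35 genes were over 1.5-fold apart in the same direction within both numbers, where 0.897% of all genes were. On the signals themselves it was also 0, against 1.17% of all genes. Within number 1, Ltbp1 and Bambi passed 1.5-fold on either scale (5.71%, against 7.68% of all genes on signal + 16 and 9.27% on the signals), both lower in Ezh2cKO, at 0.605 and 0.625 times WT. Within number 2, 0 of 35 did on signal + 16, against 4.09% of all genes, and 1 of 35, Ltbp1, did on the signals, against 5.11%. There both genes were higher in Ezh2cKO (1.51 and 1.17 times WT). Ezh2cKO replicate 1, the array on which both were lowest, was also the array with the lowest endothelial sum, and the part of this in the values of Ltbp1 and Bambi was not tested. The sign of the difference was the same within both numbers for 16 of the 35 genes (45.7%) and for 50.8% of all genes.

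**Figure D3:**
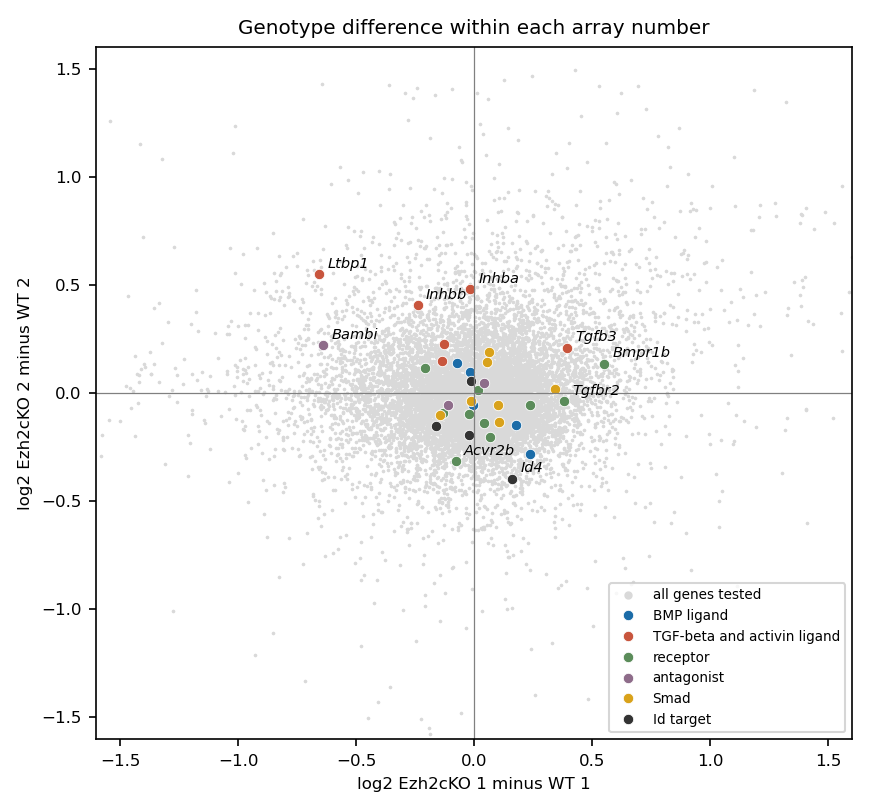
Log2 difference of signal + 16, Ezh2cKO minus WT, within array number 1 (x axis) and number 2 (y axis), 1 array per genotype in each, for the 35 genes (coloured by role) over all 12703 genes (grey, those outside the axes not shown). Most coloured points lie near the origin. Ltbp1 and Bambi lie left of and above it, and Tgfb3 to the right and above.

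For most of the 35 genes the arrays numbered 1 and 2 differed more than the genotypes, by the mean shift over both genotypes. The same share over all genes is not given, but the shift was not particular to the list. Of all 27022 kept probe sets, 1844 were at least 2-fold lower and 58 at least 2-fold higher on both arrays numbered 1 than on both numbered 2. By genotype, 13 were that far higher and 1 that far lower on both Ezh2cKO arrays. Among the 35 genes, the largest mean shifts were those of Bmp2 and Bmp5. Bmp2 was over 1.5-fold lower on the array numbered 2 in both genotypes, at 0.527 times in WT and 0.57 times in Ezh2cKO, and was the 1 of 35 genes (2.86%) to be so, against 2.94% of all genes on signal + 16 and 3.3% on the signals. Bmp5 was over 1.5-fold higher in both, at 2.06 and 1.99 times, also 1 of 35, against 7.48% and 8.6% of all genes on the same scales. Of the 8 hair placode markers, 6 were lower on replicate 2 in both genotypes, as 42.5% of all genes and 18 of the 35 list genes (51.4%) were. Of the 6 basal markers 5 were lower in this way, of the 8 dermal fibroblast markers 1 and of the 8 endothelial markers 0. The placode markers Wnt10b and Lgr5 were higher on replicate 2 in WT and lower in Ezh2cKO. The markers with the largest shifts, Shh and Lhx2, were named after their values were seen. Shh, the Hedgehog ligand of placodes, had 1918 and 451 in WT and 2301 and 587 in Ezh2cKO, and Lhx2, a placode transcription factor, had 1169 and 268 in WT against 1656 and 468 in Ezh2cKO, so that replicate 2 read 0.235 and 0.255 times replicate 1 for Shh and 0.229 and 0.283 times for Lhx2. The summed signal of the 8 placode markers was 20653 and 16852 in WT and 22450.3 and 17445 in Ezh2cKO, most of it from Ctnnb1, and all 8 passed the filter. The part of this in the Bmp2 values was not tested. Across the 35 genes the shift from number 1 to number 2 in WT and in Ezh2cKO had a Pearson correlation of 0.68, a description over genes measured on the same 4 arrays, and the sign was shared by 28 (80%), as by 78% of all genes. The labels do not say what the numbers stand for.

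**Figure D4:**
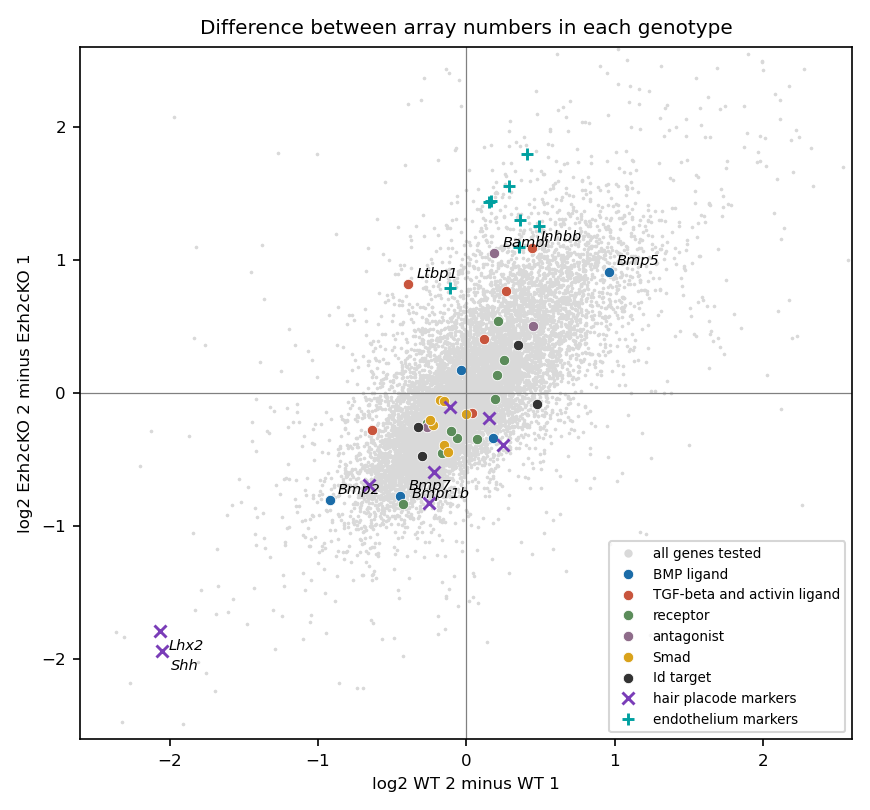
Log2 difference of signal + 16, replicate 2 minus replicate 1, in WT (x axis) and in Ezh2cKO (y axis) for the 35 genes (coloured by role), hair placode markers (crosses) and endothelial markers (plus signs) over all genes tested (grey, those outside the axes not shown). Bmp2 lies low in both genotypes and Bmp5 high in both, while Shh and Lhx2 lie lowest of the marked genes. The endothelial markers and Bambi are shifted mainly in Ezh2cKO.

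A further 78 genes of the pathways, other ligands, co-receptors, secreted and intracellular regulators and targets, were listed by role, of which 69 had a probe set and 46 passed the filter. In limma 0 of the 46 were called after adjustment, where 0.0% of all genes were. Cdkn2b alone (1 of 46, 2.17%) had an unadjusted limma p under 0.05, against 0.606% of all genes. Of the 46, 7 (15.2%) were separated upwards and 1 (2.17%) downwards, against 8.52% and 8.39% of all genes. Their median log2 difference was 0.063, beside -0.0035 over all genes. After scaling to a common median the counts were 4 and 3, where 3.29% and 5.23% of all genes were separated. Without the filter, over more genes, they were 11 and 3, where 9.9% and 9.14% were.

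Cdkn2b, encoding the cell cycle inhibitor p15 and a target of TGF-beta Smads, had 124 and 112 in WT and 308 and 219 in Ezh2cKO, 2.49 times WT within number 1 and 1.95 times within number 2. Its log2 difference was 1.04 (SE 0.34, 95% interval 0.19 to 1.89), with an unadjusted limma p of 0.0245 and an adjusted one of 0.999979. It was also the 1 gene of the 46 to be over 1.5-fold apart in the same direction within both numbers. The other 6 genes separated upwards, named after their values were seen, were smaller differences. Thbs1, encoding thrombospondin, which activates latent TGF-beta, had 1234 and 1863 in WT and 2163 and 2414 in Ezh2cKO, with log2 0.59 (SE 0.24, 95% interval -0.027 to 1.20). Skil, encoding the Smad repressor SnoN, had 919.7 and 894 in WT against 1248 and 999 in Ezh2cKO (log2 0.30), and Ltbp3, a latent TGF-beta binding protein, had 1531 and 1634 in WT against 2001 and 1806 in Ezh2cKO (log2 0.26). Map3k7, the TAK1 kinase, Pmepa1, a feedback inhibitor of TGF-beta signalling, and Usp15, a deubiquitinase, had log2 differences of 0.27, 0.20 and 0.088, and for these 3 genes the log2 differences of the kept probe sets had both signs. Nrros, which holds latent TGF-beta on myeloid cells, was the gene separated downwards, with 439.9 and 393 in WT and 349.8 and 372 in Ezh2cKO.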

How the data were processed

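The 4 samples were each run on a mouse expression array made by Affymetrix, as the design text states. Per the submitters' processing notes the authors used MAS5 (no version given), and the table holds its linear signal intensity. With 2% trimmed from either end, the average was 500.0 on all 4 arrays, and this scaling by the authors was kept. Detection calls were not used here, so background is unknown and dim values are noisy. The number of arrays limits the precision.

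After 64 control probe sets were left out of 45101, 34945 of 45037 had a single symbol in the platform annotation, 932 had several and 9160 none. Symbols were updated through gene identifiers (34741 matched in RefSeq). Probe sets in the upper 60% by mean signal (at least 73.2) were kept, 27022 in all. A gene was represented by its brightest kept probe set. Of 24 list genes with several, 12 had log2 differences of both signs. The test was that of limma 3.58.1 (R 4.3.3) on log2(signal + 16), using lmFit and eBayes with an intensity trend over all 4 arrays, without a block, on 2 residual degrees of freedom before moderation. Adjustment was Benjamini-Hochberg over all kept probe sets. The code was tested on simulated data whose noise followed limma's own intensity trend and left out the spread between array numbers. That noise setting was kept after 2 others had been tried, one of which gave more false calls than the nominal rate, so the simulation checks the code and says little about power or error rate on these arrays.

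Values were named by this rule. All 38 genes were eligible, with values on each array for those separated, those with an unadjusted p under 0.05 and the 2 of each role with the largest moderated t, and further ones of the list were added. Of the other pathway genes, those separated with an unadjusted p under 0.05 were taken, plus Ezh2. The genes and lists were chosen with earlier results of these data known, and the 2-fold interval, the 1.5-fold marks, the promoter features and the 4 promoters printed were chosen after the values here were seen. Alternatives comprised leaving out each array, the replicate block, quantile normalization, scaling to a common median, pseudocounts of 1 or 64, keeping all probe sets or the upper 40%, no trend, an adjusted p of 0.1 and averaging a gene's probe sets (not fitted in limma).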

Additional observations from a re-analysis of the deposited data

How the results depend on the processing

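No list gene was called in any of the limma fits run, including an adjusted p of 0.1. Pseudocounts of 1 and 64 and the fit without the trend leave the order of a gene's signals unchanged. The counts of separated genes were therefore the same in them by construction. Among the 35 genes, those separated upwards numbered 1 (2 in the values reported) after scaling to a common median and 6 when a gene's probe sets were averaged, and those separated downwards 2 (1 reported) after quantile normalization and 0 with the probe set means. Their median log2 difference was -0.017 with the common median and 0.031 with the probe set means. Among the other 46 pathway genes, 9 were separated upwards after quantile normalization, 4 with the common median and 4 with the probe set means. Downwards the counts were 0, 3 and 2 in the same order. Over all genes the shares in that order were 8.43%, 3.29% and 8.61% upwards and 9.67%, 5.23% and 7.22% downwards. Without the filter 11 of 69 other pathway genes were separated upwards and 3 downwards, against 9.9% and 9.14% of all genes.

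With 1 array left out, separation is against a lone array and so is more frequent by construction. The list then had 5 to 14 genes upwards and 6 to 12 downwards, with medians of -0.055 to 0.095, and the other pathway genes 15 to 20 and 5 to 10, with medians of 0.0303 to 0.13. Over all genes in the same fits 24.9% to 36.7% were separated upwards and 25.2% to 35.8% downwards, and of the list 14.3% to 40% and 17.1% to 34.3%. Of the 35 genes, 17 changed the sign of their small differences without Ezh2cKO replicate 1, 9 to 12 without another array, 4 with the common median and 0 in the other limma fits. As none of these differences was called, a change of sign was not counted as a reversal, a choice made after many differences near 0 had been seen. With 1 array left out, Bmp2, Bmp7, Tgfb2, Inhbb, Bmpr1b, Acvr2a, Tgfbr3 and Bambi moved by more than their SE, as did Tgfb1, Smad3 and Id4 with averaged probe sets.

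With the array number as a replicate block, 0 list genes and 0 other pathway genes were called, and 5 of all genes were. With the block Bmpr1b, 1 of the 35 genes, had an unadjusted limma p under 0.05. The share of all genes under that p in this fit is not given, so no result about the list is read from it. The deviations of same-numbered arrays from their group means correlated at 0.77, but there are only 2 pairs and the labels do not say that the numbers pair samples. Without Ezh2cKO replicate 2, 14 of all genes were called, without WT replicate 2, 34, and without WT replicate 1, 2, none of them on the list. Ezh2 itself, not called in the values reported, was called with the block and in each fit on 3 arrays except the one that dropped Ezh2cKO replicate 1, with limma adjusted p of 0.044 with the block and 0.00122 to 0.0432 in those fits. With ratios of the signals without a pseudocount, chosen after seeing the data, 1 list gene in place of 0 was over 1.5-fold apart within number 2, and 2 other pathway genes in place of 1 were over 1.5-fold higher on replicate 2 in both genotypes.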

Other observations

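Several regulators and targets of the pathway that are not on the list were also read. Of these, Sostdc1, Rgmb and Tsc22d1 had high signals and overlapping groups. Sostdc1, encoding a secreted BMP antagonist made by epithelia of developing appendages, had 7937 and 6216 in WT and 7866 and 5823 in Ezh2cKO, ratios of 0.991 and 0.937 within the numbers and log2 -0.053 (SE 0.21, 95% interval -0.58 to 0.48). Rgmb, a BMP co-receptor, had 2266 and 2418 in WT against 2523 and 2363 in Ezh2cKO, with log2 0.06 (SE 0.16, 95% interval -0.34 to 0.46). Tsc22d1, a TGF-beta-induced gene, had 13969 and 12746 in WT against 14997 and 13167 in Ezh2cKO. Eng, a TGF-beta co-receptor of endothelial cells, had 1070.0 and 1222 in WT and 753 and 1244 in Ezh2cKO, lowest on the array that also had the lowest endothelial sum, and the part of one in the other was not tested. Nbl1, a BMP antagonist, was lower on the second array in both genotypes (0.602 and 0.472 times), and Hey1, a transcription factor induced by BMP and Notch, was higher (2.22 and 2.57 times). All of these were named after their values were seen.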
